A study of Rattus norvegicus with 6 samples.

Results

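The genes described here encode 10 G protein-coupled receptors that tune insulin secretion or were listed beside such receptors, namely Glp1r, Gipr, Gcgr, Gpr119, Ffar1, Chrm3, Adora1, Adra2a, Sstr3 and Gpr22. They were chosen by name, and all 10 were found among the 35362 gene rows of the deposited table. The choice was made with the S487D and S487A values of these libraries known, so the members' differences between the groups are given as a description, without a test. Messenger RNA had been sequenced from INS-1 cells, a rat insulinoma line that secretes insulin, at passages 75 to 80, after transduction with a pMX-puro retrovirus carrying Flag-tagged menin. Menin, encoded by Men1, acts in the nucleus as a scaffold of histone methyltransferase complexes. The S487D group (3 libraries) overexpressed menin with aspartate at the serine, an acidic stand-in for phosphorylation, and the S487A group (3 libraries) overexpressed menin with alanine there, which cannot be phosphorylated. Both groups share the cell line, the vector and the culture medium, and the labels name no receptor agonist. Neither wild-type menin nor untransduced cells were analysed here. The labels give neither the number of transductions or clones behind each group nor separate cultures behind each library, so the spread between libraries may be technical and the mutation cannot be told apart from the cell population that carries it. The study concerns phosphorylation of menin in GLP-1 signalling, and the comparison shows how receptor mRNAs stand in cells with either form of menin.

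G protein-coupled receptors pass hormone, lipid and transmitter signals to the beta cell through different G proteins. Receptors coupled to Gs raise cyclic AMP and strengthen glucose-stimulated insulin secretion, receptors coupled to Gq release calcium from stores and also strengthen it, and receptors coupled to Gi lower cyclic AMP and restrain it. The incretin receptors for GLP-1 and GIP are Gs-coupled and carry the effect of gut hormones released after a meal.

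Values are RPKM, reads assigned to a gene scaled to its length and to the library's total, so levels of different genes can be compared per length. Means are given ± SD over n = 3 libraries per group. Differences are S487D minus S487A on the log2(RPKM + 1) scale with a standard error (SE) from the spread of the libraries. On this scale changes of low genes come out too small, most of all near 1 RPKM or less but also at several RPKM. The libraries held 9444801 to 10253573 assigned reads in S487D and 10037113 to 10867549 in S487A. Men1 was read at 113, 103 and 119 RPKM in S487D, against 71.2, 76.7 and 75.0 RPKM in S487A, and the share of these reads that came from the transgene is unknown. Of 10 beta cell markers, all were above the filter on low values, and their summed level was 17682 to 18874 RPKM in S487D and 5431 to 5973 RPKM in S487A, most of it Ins1. The fit across all genes called 6 of them higher and 4 lower in S487D, the lower ones being Nkx6-1 (3.98 to 4.84 RPKM in S487D, against 9.62 to 10.7 RPKM in S487A), Neurod1, Isl1 and Abcc8. Summed ductal markers (5 genes, nearly all of it Krt7) were at 81.3 to 85.0 RPKM in S487D and 209 to 228 RPKM in S487A, while Krt19 and Cftr were at or near 0. Of the alpha cell markers, Gcg is described with the ligand genes and Ttr was at 0 in every library. Summed acinar (5 genes), fibroblast (6), endothelial (4), immune (5) and delta cell markers (3) stayed below 1.2 RPKM in every library, while the 2 PP cell markers summed to 62.4 to 67.9 RPKM in S487D and 58.2 to 63.0 RPKM in S487A, all of it Etv1, with Ppy at 0. The part of these marker shifts in the receptor differences was not tested. In bulk RNA, fewer cells with a transcript and less transcript per cell cannot be told apart.

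The clearest contrast lay in the adenosine receptor gene Adora1 and the orphan receptor gene Gpr22, which were low in S487D and among the better-read receptors in S487A. Glp1r and Ffar1 were lower in S487D by smaller amounts, Gipr and Gcgr were close in both groups, and Sstr3, Adra2a, Chrm3 and Gpr119 were higher in S487D. The groups did not overlap in 9 of 10 members, 5 higher and 4 lower in S487D. Among all 12527 genes tested the groups did not overlap in 54.6%, with 25.0% higher and 29.5% lower in S487D. The fit across all genes (limma on log2(RPKM + 1), Benjamini-Hochberg adjusted p under 0.05) called the same 9 members, where it called 44.4% of all genes tested (20.1% higher and 24.3% lower), and nothing is read from that count since the members were listed with this contrast known. The median log2 difference was 0.04 over the members and -0.01 over all genes tested. All 10 members passed the filter of at least 1 RPKM in at least 3 libraries, Gpr119 through the S487D libraries alone.

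**Figure D1:**
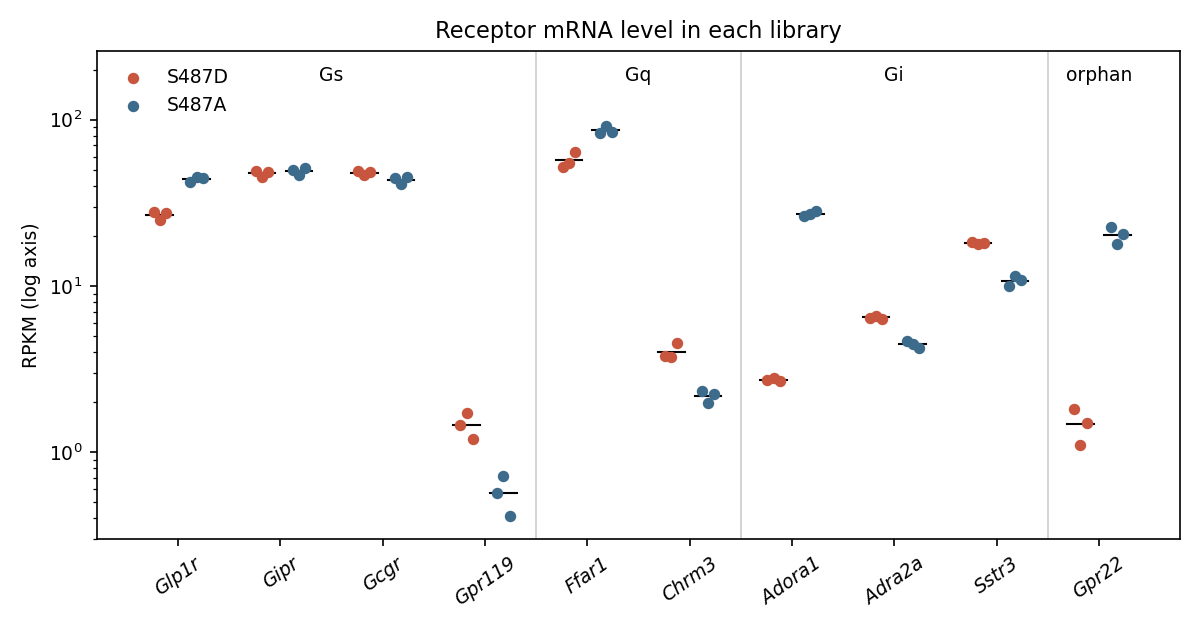
RPKM on a log axis of each receptor gene in each library, with S487D points left of S487A points and black lines at the group means (n = 3 libraries each), grouped by the G protein the receptor couples to. Adora1 and Gpr22 show the widest gaps, with S487D means of 2.72 and 1.48 RPKM against S487A means of 27.3 and 20.3 RPKM, while Gipr is the member whose groups overlap.

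Among the Gs-coupled receptors, Glp1r encodes the GLP-1 receptor, the target of incretin drugs. Its row lies on chromosome 20 from 9586003 to 9626228 (rn6, plus strand). Glp1r was read at 27.8, 25.0 and 27.6 RPKM in S487D, against 42.5, 45.2 and 44.4 RPKM in S487A. Every S487D library was below every S487A library. The means were 26.8 ± 1.57 RPKM in S487D and 44.0 ± 1.40 RPKM in S487A, a log2 difference of -0.70 (SE 0.055), from 946 to 1134 reads per library in S487D and 1697 to 1956 in S487A.

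Gipr encodes the receptor of GIP, the other incretin, and lies on chromosome 1 from 80063049 to 80073223. Its level was 49.2, 44.9 and 48.3 RPKM in S487D, against 50.1, 46.8 and 51.2 RPKM in S487A. The groups overlapped, and the log2 difference was -0.05 (SE 0.055), with the sign turned after median centring (0.0038). The incretin receptors thus differed from each other in how they stood between the groups. The ratio of Glp1r to Gipr RPKM was 0.565, 0.556 and 0.570 in the S487D libraries, against 0.849, 0.967 and 0.868 in the S487A libraries.

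Gcgr encodes the glucagon receptor, which beta cells use to respond to glucagon from neighbouring alpha cells, and lies on chromosome 10 from 109707865 to 109716129. Its level was 48.9, 46.5 and 48.6 RPKM in S487D, against 44.5, 41.3 and 44.9 RPKM in S487A. The groups stood apart by a narrow margin, with a log2 difference of 0.14 (SE 0.043). The start of the Gcgr row overlaps LOC103693493 on the other strand, read at 9.49 ± 0.364 RPKM in S487D and 11.6 ± 1.14 RPKM in S487A, and the library kit does not mark strand, so reads of the shared stretch cannot be assigned to either gene. The Glp1r to Gcgr ratio averaged 0.558 ± 0.018 in S487D and 1.01 ± 0.073 in S487A.

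Gpr119 encodes a receptor for lipid amides such as oleoylethanolamide and was the lowest-read member in both groups. It lies on chromosome X from 135515545 to 135521598. Its level was 1.46, 1.72 and 1.20 RPKM in S487D, against 0.566, 0.719 and 0.415 RPKM in S487A. The groups did not overlap, but these values rest on 16 to 23 reads per library in S487D and 6 to 11 in S487A. The log2 difference was 0.65 (SE 0.12), and 1.24 where the pseudocount was 0.1 and not 1. Because this gene passed the filter only where it was high, its place among the tested genes says nothing of its difference.

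Of the Gq-coupled receptors, Ffar1 encodes GPR40, which senses long-chain fatty acids, and had the highest level of the 10 in both groups. Its row of 905 bases lies on chromosome 1 from 89308475 to 89309379. Its level was 51.9, 55.1 and 64.2 RPKM in S487D, against 82.7, 91.8 and 84.6 RPKM in S487A. All S487D libraries were below all S487A libraries, with the third S487D library closest to the S487A range. The log2 difference was -0.59 (SE 0.10), and it ran from -0.68 to -0.53 as each library was left out in turn.

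Chrm3 encodes the muscarinic M3 receptor, through which acetylcholine from parasympathetic nerves acts on beta cells, and lies on chromosome 17 from 63990599 to 64463222. It went the other way from Ffar1. Its level was 3.80, 3.72 and 4.51 RPKM in S487D, against 2.32, 1.97 and 2.24 RPKM in S487A. The groups did not overlap, and the log2 difference was 0.66 (SE 0.086), from 154 to 185 reads per library in S487D and 93 to 101 in S487A. It was 0.85 where the pseudocount was 0.1.

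Of the Gi-coupled receptors, Adora1 encodes the A1 adenosine receptor and lies on chromosome 13 from 51042246 to 51076856. It was read at 2.71, 2.78 and 2.66 RPKM in S487D, against 26.3, 27.1 and 28.3 RPKM in S487A. The S487D mean was 0.0998 of the S487A mean, and libraries of a group lay close together, with 76 to 84 reads in S487D and 798 to 891 in S487A. The log2 difference was -2.93 (SE 0.032), and -3.28 where the pseudocount was 0.1.

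Adra2a encodes the alpha-2A adrenergic receptor, through which adrenaline and noradrenaline restrain insulin release, and lies on chromosome 1 from 274766283 to 274769083. Its level was 6.41, 6.64 and 6.35 RPKM in S487D, against 4.66, 4.47 and 4.24 RPKM in S487A. All S487D libraries were above all S487A libraries, with a log2 difference of 0.45 (SE 0.037), and 0.53 where the pseudocount was 0.1.

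Sstr3 encodes a somatostatin receptor found on primary cilia and lies on chromosome 7 from 119760881 to 119768082. Its level was 18.3, 17.8 and 18.1 RPKM in S487D, against 9.98, 11.4 and 10.9 RPKM in S487A. The groups did not overlap, and the log2 difference was 0.70 (SE 0.053), close in size to that of Glp1r and opposite in sign. Its ligand gene Sst was listed at 0 in all 6 libraries.

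Gpr22 encodes an orphan receptor best known from brain and heart, and lies on chromosome 6 from 51012421 to 51019407. It was read at 1.83, 1.11 and 1.49 RPKM in S487D, against 22.8, 17.8 and 20.4 RPKM in S487A. The S487D mean was 0.0726 of the S487A mean, from 48 to 85 reads per library in S487D and 879 to 1038 in S487A. The log2 difference was -3.11 (SE 0.16), and -3.72 where the pseudocount was 0.1. A fall of at least 4-fold on the log2(RPKM + 1) scale without overlap of the groups, as in Adora1 and Gpr22, was seen in 33 of all genes tested (0.263%).

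The promoters of Gpr22, Adora1 and Glp1r are shown because the first pair holds the widest differences and Glp1r is the receptor of GLP-1, the hormone in the study's title. Sequences are from RefSeq (GRCr8 build) and cover the 250 bases before the annotated start, 5′ to 3′ on the gene's strand. The RefSeq table matched 9 of 10 members. Capitals mark matches, on either strand, to the short CRE motif TGACG, which the full CRE TGACGTCA contains, to the CCAAT box motif CCAAT, to the TATA box motif TATAAA and to the GC box motif GGGCGG.
Gpr22 (chr6:54044986-54045235, minus strand): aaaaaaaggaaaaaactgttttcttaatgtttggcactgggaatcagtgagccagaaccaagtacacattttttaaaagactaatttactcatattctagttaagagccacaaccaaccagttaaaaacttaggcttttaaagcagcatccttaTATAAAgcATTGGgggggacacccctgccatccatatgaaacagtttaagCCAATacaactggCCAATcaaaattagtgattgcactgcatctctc
Adora1 (chr13:48246832-48247081, minus strand): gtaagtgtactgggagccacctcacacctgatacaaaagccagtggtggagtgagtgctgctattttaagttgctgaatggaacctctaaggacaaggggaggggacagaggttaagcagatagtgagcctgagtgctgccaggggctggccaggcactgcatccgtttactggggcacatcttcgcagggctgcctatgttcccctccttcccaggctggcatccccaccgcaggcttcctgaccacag
Glp1r (chr20:8973143-8973392, plus strand): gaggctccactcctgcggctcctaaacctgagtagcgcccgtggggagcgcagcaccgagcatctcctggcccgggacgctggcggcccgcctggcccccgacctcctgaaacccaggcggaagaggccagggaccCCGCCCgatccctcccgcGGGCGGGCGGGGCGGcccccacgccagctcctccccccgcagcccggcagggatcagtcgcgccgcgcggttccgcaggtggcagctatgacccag

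These stretches differ in base composition. The Gpr22 stretch is 37.2% G and C with 0 CpG, holds 1 TATAAA match and 3 CCAAT matches, while the Adora1 stretch is 56.8% G and C with 3 CpG and no match to any of the motifs. The Glp1r stretch is 75.6% G and C with 27 CpG and 4 GGGCGG matches, some of which overlap. Over 33469 promoters of the table, the median was 51.2% G and C with 5 CpG, and 12.9% held TATAAA, 34.0% CCAAT, 30.5% GGGCGG, 18.2% TGACG and 1.59% TGACGTCA. Among the members, TGACG was found in the stretches of Ffar1 and Chrm3, and the full CRE in none of the 9. A match describes letters in this window and is no evidence of binding.

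The order of levels differed between the groups. In S487D it ran Ffar1, Gcgr, Gipr, Glp1r, Sstr3, Adra2a, Chrm3, Adora1, Gpr22 and Gpr119, where the ranges of Gcgr and Gipr overlapped, as did those of Gpr22 and Gpr119, and no other neighbours did. In S487A it ran Ffar1, Gipr, Glp1r, Gcgr, Adora1, Gpr22, Sstr3, Adra2a, Chrm3 and Gpr119, where the ranges of Glp1r and Gcgr alone overlapped. The members were ranked with 120 other receptor genes, those found from lists drawn up by coupling with earlier results of these data known. These lists do not hold every receptor gene, so the ranks are places among the listed genes only. Ffar1, Gcgr and Gipr took ranks 1 to 3 in S487D, and Glp1r rank 6. In S487A, Ffar1, Gipr, Glp1r and Gcgr took ranks 1 to 4. Adora1 was rank 27 in S487D and rank 8 in S487A, and Sstr3 was rank 11 in S487D and rank 19 in S487A.

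The RPKM of all 10 receptors summed to 214 ± 8.97 in S487D and 289 ± 2.60 in S487A. The 4 Gs-coupled receptors summed to 124 ± 4.92 RPKM in S487D and 138 ± 3.42 RPKM in S487A, and made up 58.0 ± 1.85% of the pool in S487D and 47.6 ± 1.02% in S487A. The 3 Gi-coupled receptors summed to 27.2 ± 0.144 RPKM in S487D and 42.5 ± 1.32 RPKM in S487A. Without Adora1, the Gi-coupled sum was 24.5 ± 0.152 RPKM in S487D and 15.2 ± 0.635 RPKM in S487A, so the direction of the Gi sum rested on Adora1 alone. Sstr3 made up 8.47 ± 0.297% of the pool in S487D and 3.73 ± 0.237% in S487A.

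**Figure D2:**
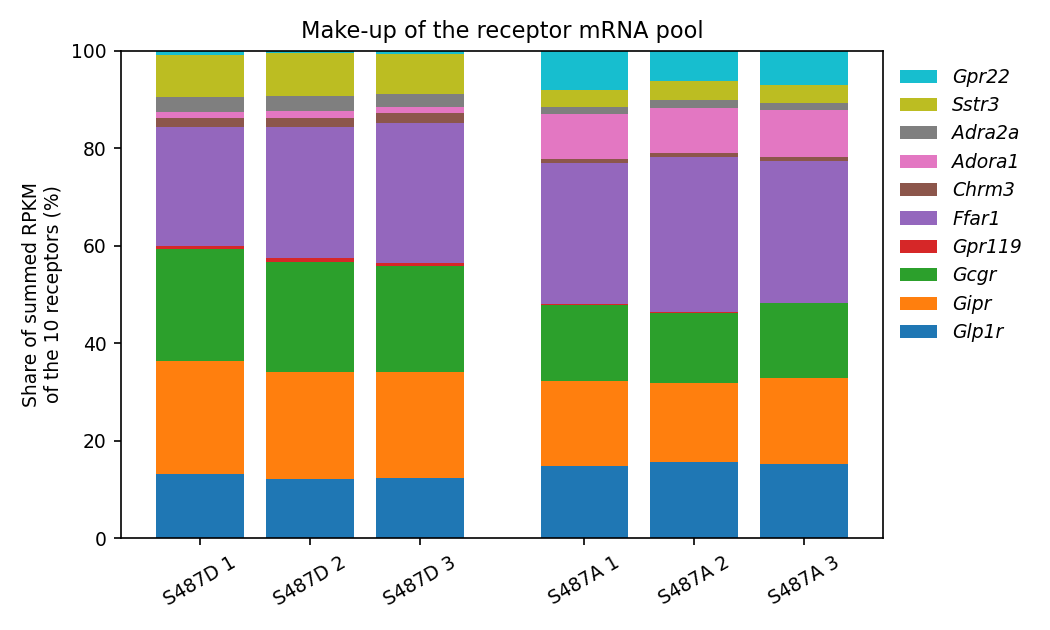
Stacked bars give each receptor's share, in percent, of the summed RPKM of the 10 receptors in each library, S487D libraries on the left and S487A libraries on the right. Gcgr and Gipr hold 22.5% and 22.2% of the pool in S487D against 15.1% and 17.1% in S487A, and Adora1 holds 1.28% in S487D against 9.44% in S487A. The pool itself is smaller in S487D (214 RPKM, against 289 RPKM in S487A). A share can thus be larger there without a higher level, as for Gipr, at 47.5 RPKM in S487D and 49.3 RPKM in S487A.

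The members do not share a place in the genome, and their neighbours on the chromosome mostly stood apart from them. For each member the 10 nearest tested genes on each side were taken. All 20 neighbours of Glp1r had a higher log2 difference than Glp1r itself, with a median of -0.00 and a range of -0.39 to 0.36. The same held for Gpr22, whose neighbours had a median of -0.12, and for Adora1, whose neighbours had a median of -0.03. Chrm3 and Sstr3 were above all 20 of their neighbours, and 11 of the Sstr3 neighbours fell and 2 rose by the fit across all genes, with a median of -0.16. Gcgr lay inside its neighbours' spread, with 12 of 20 above it.

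Adora1 and Ffar1 each had close neighbours that were also lower in S487D, picked out after their values were seen. Mybph, a myosin-binding protein gene that ends 343 bases from the Adora1 row on the other strand, was read at 0.848, 0.953 and 0.881 RPKM in S487D, against 9.91, 9.46 and 9.71 RPKM in S487A, a log2 difference of -2.50 given without a test, since Mybph passed the filter through S487A alone. The other 19 neighbours of Adora1 lay between -0.39 and 0.52. Without strand in the libraries, transcription that runs past the end of one gene into the other cannot be assigned. Next to Ffar1 lie Ffar2 and Ffar3, receptors for short-chain fatty acids. Ffar2 fell to 4.31 ± 0.706 RPKM in S487D, against 7.08 ± 0.784 RPKM in S487A (limma adjusted p = 0.00131), and Ffar3 fell to 23.2 ± 1.81 RPKM in S487D, against 36.9 ± 1.72 RPKM in S487A (limma adjusted p = 3.24e-05), while the median of all 20 Ffar1 neighbours was 0.11. The lowest of the 20 was Mag, on the other side of Ffar1, with a log2 difference of -0.71 given without a test. By the fit across all genes, 6 of the 20 were higher and 4 lower in S487D.

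**Figure D3:**
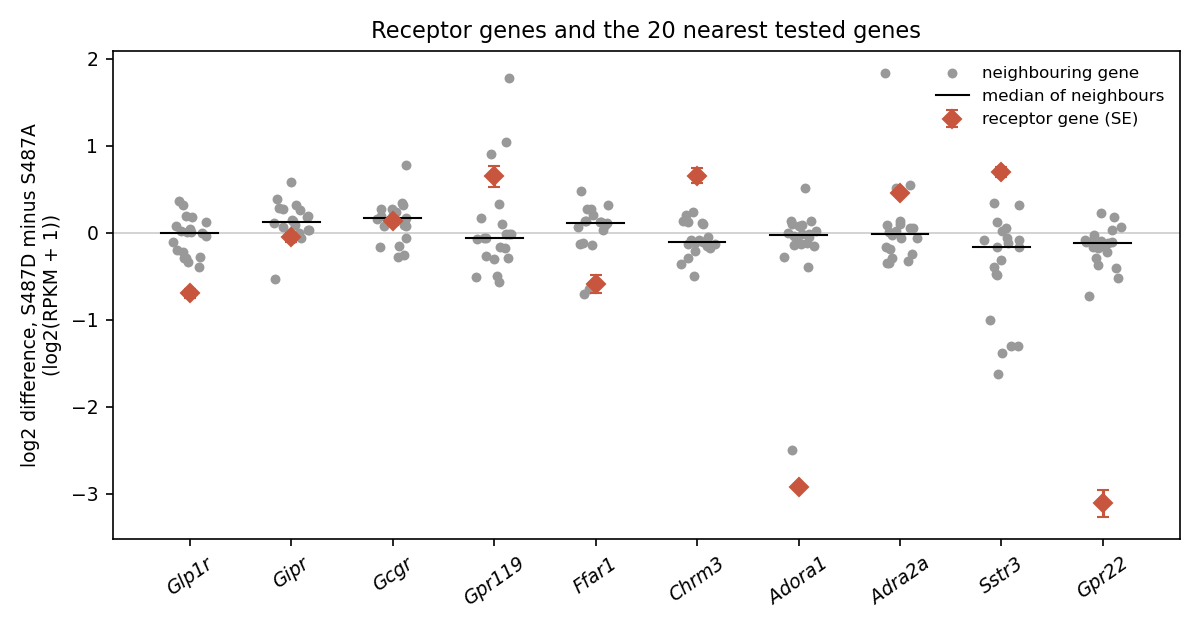
Log2 difference (S487D minus S487A, log2(RPKM + 1)) of each receptor gene, as a diamond with its SE, and of the 20 nearest tested genes, as grey points with a black line at their median. Glp1r, Gpr22 and Adora1 lie below all of their neighbours, and Chrm3 and Sstr3 above all of theirs. A single neighbour of Adora1, at -2.50, lies near it.

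The genes whose profile over the 6 libraries was most like that of Glp1r were Gpr146, an orphan receptor gene, Fyn, a tyrosine kinase gene, and Spata13. Likeness was the root mean square difference of log2(RPKM + 1), centred on each gene's own mean, over 12517 other genes tested, and came to 0.016 for Gpr146, 0.025 for Fyn and 0.026 for Spata13. Gpr146 averaged 6.84 ± 0.576 RPKM in S487D and 11.6 ± 0.426 RPKM in S487A, and like Glp1r it was lowest in the second S487D library and highest in the second S487A library. The genes most like Gpr22 were Ifi27l2b (0.14), Rnd1 (0.16) and Serpina1 (0.19). Ifi27l2b averaged 13.8 ± 2.67 RPKM in S487D and 147 ± 5.74 RPKM in S487A. These genes were found by searching all profiles, so their likeness is a description.

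Other receptors, G proteins and effectors were taken from lists drawn up by role, with earlier results of these data known, and tested in the fit across all genes. Folds of these genes are on the log2(RPKM + 1) scale and so smaller than ratios of mean RPKM. Of 120 other receptor genes found, 26 were tested, 31 were at 0 in every library and the rest were too low to test. Among the tested ones, 7 rose, 12 fell and 7 did not pass the threshold, against 44.4% of all genes tested that were called.

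Of 7 other Gs-coupled receptors tested, 4 rose and 2 fell (85.7% called), with a median log2 change of 0.32 beside -0.01 over all genes tested. Crhr1, the corticotropin-releasing hormone receptor gene, rose to 28.2 ± 1.56 RPKM in S487D, against 12.4 ± 1.15 RPKM in S487A. Adcyap1r1, the PACAP receptor gene, rose to 18.8 ± 1.55 RPKM in S487D, against 14.5 ± 0.918 RPKM in S487A, and its row overlaps another transcript. Gpr6, a gene for a constitutively active receptor, rose 1.25-fold. Adora2b, which encodes the Gs-coupled A2B adenosine receptor, fell to 8.83 ± 0.645 RPKM in S487D, against 17.7 ± 0.691 RPKM in S487A. Adora2a, another adenosine receptor gene of this list, named after its value was seen, was not called. Its level was 6.95 ± 1.29 RPKM in S487D and 7.97 ± 1.05 RPKM in S487A (limma adjusted p = 0.262). The bile acid receptor gene Gpbar1 fell to 1.57 ± 0.395 RPKM in S487D, against 5.28 ± 0.204 RPKM in S487A, in a row that overlaps Aamp. Limma adjusted p ran from 2.11e-06 to 0.00287 over the 5 called genes named here.

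Of 8 receptors tested from the list of other Gq-coupled receptors, 0 rose and 5 fell (62.5% called), with a median log2 change of -0.39. The 5 include Ptger3, named after its value was seen, whose receptor EP3 is best known for coupling to Gi. Ptger3 fell to 3.89 ± 0.409 RPKM in S487D, against 5.67 ± 0.312 RPKM in S487A, and the median without it was not computed. The count of those that rose was 0 in the limma fit at an adjusted p under 0.05, and 0 also at an unadjusted p under 0.05 and with voom on recovered reads. Ffar4, which encodes GPR120, another sensor of long-chain fatty acids, fell to 3.24 ± 0.339 RPKM in S487D, against 14.5 ± 0.216 RPKM in S487A. The 4 free fatty acid receptor genes Ffar1, Ffar2, Ffar3 and Ffar4, grouped after their values were seen, were thus all lower in S487D, also after quantile normalization and median centring. The calcium-sensing receptor gene Casr fell to 11.9 ± 0.387 RPKM in S487D, against 23.7 ± 0.660 RPKM in S487A, and the zinc-sensing receptor gene Gpr39, whose row overlaps Lypd1, fell 1.25-fold. Limma adjusted p ran from 7.73e-08 to 0.00118 over Ffar4, Casr and Gpr39. Ptger1, a prostaglandin E2 receptor gene with the highest level of this list, was at 30.3 ± 0.740 RPKM in S487D and 29.6 ± 1.26 RPKM in S487A (limma adjusted p = 0.596).

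Of 11 other Gi-coupled receptors tested, 3 rose and 5 fell (72.7% called), with a median log2 change of -0.20. Sstr1, another somatostatin receptor gene, rose to 2.98 ± 0.191 RPKM in S487D, against 1.26 ± 0.057 RPKM in S487A. The other somatostatin receptor genes of this list, Sstr2, Sstr4 and Sstr5, were too low to test. Sstr2 averaged 0.340 RPKM in S487D and 0.366 RPKM in S487A. Gabbr2, a subunit of the GABA-B receptor, rose to 11.6 ± 0.541 RPKM in S487D, against 6.10 ± 0.790 RPKM in S487A, where a further transcript overlaps its row, and the dopamine receptor gene Drd2 rose to 3.35 ± 0.346 RPKM in S487D, against 2.06 ± 0.087 RPKM in S487A. The melatonin receptor gene Mtnr1a fell to 15.9 ± 0.699 RPKM in S487D, against 28.6 ± 1.53 RPKM in S487A. The muscarinic M4 receptor gene Chrm4, whose row overlaps Mdk, fell to 15.8 ± 1.02 RPKM in S487D, against 24.1 ± 1.22 RPKM in S487A, the opposite direction to Chrm3. Limma adjusted p ran from 3.51e-06 to 0.00126 over Sstr1, Gabbr2, Drd2, Mtnr1a, Chrm4 and Ffar3.

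**Figure D4:**
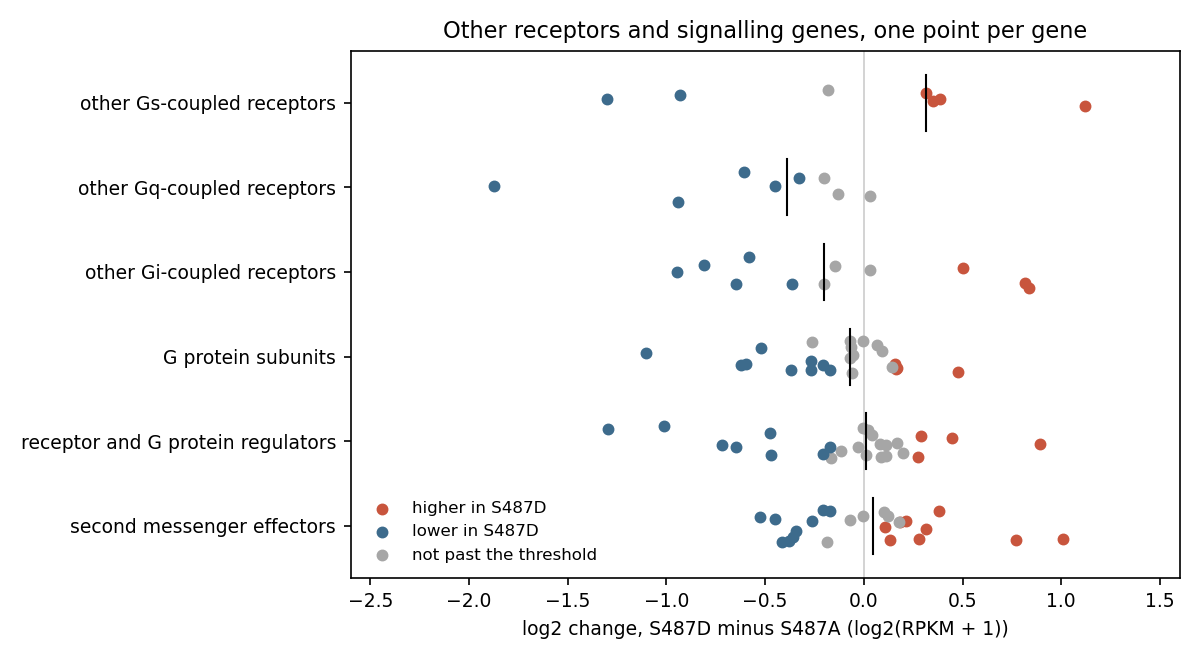
Log2 change (S487D minus S487A, log2(RPKM + 1)) of each tested gene in 6 lists of other receptors and signalling genes, red where limma called it higher in S487D, blue where lower and grey where it did not pass the threshold, with a black line at the list's median. Medians run from -0.39 in the list of Gq-coupled receptors, which holds Ptger3, to 0.32 in the list of Gs-coupled receptors.

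Most G protein subunit genes differed by small amounts, with 4 of 23 tested higher in S487D, 9 lower and 10 not past the threshold (56.5% called, beside 44.4% of all genes tested), at a median log2 change of -0.07. The number called was 13, and ran from 9 to 13 as each library was left out in turn. The calls of Gng5, Gna11 and Gnb5, named after their values were seen, were each lost in several alternatives. Gnas, which encodes the stimulatory alpha subunit used by the incretin receptors, was read at 740 ± 6.81 RPKM in S487D and 661 ± 12.5 RPKM in S487A (log2 change 0.16, limma adjusted p = 0.00500), which was not called after quantile normalization (log2 change 0.01, limma adjusted p = 0.716, where the 15 alternatives ran from 3.61e-06 to 0.716). Its row overlaps other transcripts. Gng3, a gamma subunit gene, rose 1.39-fold, and Gng4 rose 1.12-fold, which was not called without S487D replicate 1 (limma adjusted p = 0.0572, where the 15 alternatives ran from 0.00202 to 0.0572). Gnb4, a beta subunit gene, fell to 1.82 ± 0.516 RPKM in S487D, against 5.03 ± 0.663 RPKM in S487A, while Gng12 fell 1.54-fold and Gna12 fell 1.29-fold. The Gnb4 and Gng12 rows overlap other transcripts. Gnai2, the most-read inhibitory alpha subunit, named after its value was seen, fell to 297 ± 5.93 RPKM in S487D, against 358 ± 12.9 RPKM in S487A (limma adjusted p = 5.57e-04).

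Among regulators of receptors and G proteins, 4 of 25 rose and 8 fell, 13 were not called, and the median log2 change was 0.01. The share called, 48%, was near the 44.4% of all genes tested and is no result about this list. Slc9a3r1, which encodes the scaffold NHERF1, had the highest mean of this list over the 6 libraries, though not within S487D, and fell to 71.0 ± 2.23 RPKM in S487D, against 176 ± 5.59 RPKM in S487A. Gprasp1, which sorts receptors to lysosomes, fell to 10.1 ± 0.286 RPKM in S487D, against 21.5 ± 0.834 RPKM in S487A. Both rows overlap other transcripts. Rgs17 fell 1.65-fold, while Rgs2, an inhibitor of Gq signalling, rose to 5.36 ± 0.754 RPKM in S487D, against 2.44 ± 0.528 RPKM in S487A. Gpsm2 rose 1.36-fold, and Arrb2, which encodes beta-arrestin that shuts off and internalises activated receptors, rose 1.22-fold. Limma adjusted p ran from 2.47e-08 to 0.00115 over these genes.

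Among second messenger effectors, 9 of 24 rose and 9 fell, 6 were not called (75% called, beside 44.4% of all genes tested), and the median log2 change was 0.05. Kcnj3, a potassium channel subunit opened by Gi-coupled receptors, was read at 2.08, 2.36 and 2.09 RPKM in S487D, against 0.491, 0.504 and 0.745 RPKM in S487A, and like Gpr119 it passed the filter through S487D alone, so nothing is read from its call. That call is still included in the 9 that rose and in the 75%. The calcium-stimulated adenylyl cyclase gene Adcy8 rose to 2.39 ± 0.265 RPKM in S487D, against 0.991 ± 0.204 RPKM in S487A, and Adcy9 rose to 6.73 ± 0.032 RPKM in S487D, against 4.93 ± 0.296 RPKM in S487A. Adcy6, a cyclase inhibited by calcium, fell 1.37-fold, the protein kinase C gene Prkcb fell 1.44-fold and the protein kinase A regulatory subunit gene Prkar2a fell 1.20-fold. The rows of Adcy9 and Adcy6 overlap other transcripts. Limma adjusted p ran from 1.07e-05 to 0.0352 over the named genes of this list other than Kcnj3. The highest belongs to Prkar1a, the most-read gene of the list, at 224 ± 4.85 RPKM in S487D and 208 ± 0.608 RPKM in S487A, which lost its call in 9 of 15 alternatives (limma adjusted p 0.00372 to 0.742) and turned sign after quantile normalization (log2 change -0.02).

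Of the ligand genes of the members, Gcg, which encodes both GLP-1 and glucagon, rose to 864, 783 and 809 RPKM in S487D, against 92.9, 91.6 and 104 RPKM in S487A (log2 change 3.08, limma adjusted p = 7.39e-10). All S487D libraries were far above all S487A libraries, while of its receptors Glp1r was lower and Gcgr slightly higher in S487D. Gip reached at most 0.116 RPKM in S487D and 0.658 RPKM in S487A, and Cort, the gene of the somatostatin relative cortistatin, at most 0.306 RPKM in S487D and 0.536 RPKM in S487A.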

How the data were processed

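Messenger RNA of 6 INS-1 samples was sequenced after Trizol extraction and TruSeq RNA library preparation, per the labels' protocols. The submitters' processing notes list bcl2fastq 2.17, cutadapt, TopHat2 2.0.13 and the build rn6 (Rnor_6.0). The read counter, annotation and filters were not given in the sources used here. Per the file headers, the authors deposited RPKM per gene and library beside gene length, position and strand.

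Multiplied by gene length, RPKM gave whole numbers of a constant unit per library, to within 0.05 of a read for at least 99.95% of values above 0, and so reads per gene and totals. Genes reaching 1 RPKM in 3 or more libraries entered a two-sided limma 3.58.1 fit (R 4.3.3) of group on log2(RPKM + 1), with intensity trend and Benjamini-Hochberg adjustment over all 12527 genes at a threshold of 0.05. Values were not scaled further. Of the calls, 45.3% were higher in S487D as deposited, 55.4% after quantile normalization and 58.9% after median centring. On simulated reads of 12527 genes the fit made 148 calls, 9 of them false. It recovered 10% of 1.2-fold changes, 76% of 1.5-fold, 94% of 2-fold and 100% of 4-fold changes. Far fewer genes changed in the simulation than were called in the data, so these shares need not hold for the data. The members, lists and tests were chosen with earlier results of these data known. Genes outside the members were named by a rule: up to 3 called genes in each direction and the highest-read gene of each list, and the 3 genes most like Glp1r and Gpr22 in profile. Others are said to be named after their values were seen. The summed alpha cell marker level is not reported here. The labels give no batch. Alternatives were pseudocounts of 0.1 and 0.01, no filter or one at RPKM 5, median centring, quantile normalization, a replicate block, dropping the intensity trend, limma voom on recovered reads, and each library left out in turn. Python 3.11.15 with pandas 2.3.3 and matplotlib 3.10.9 made tables and figures.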

Additional observations from a re-analysis of the deposited data

How the results depend on the processing

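Every member kept its direction in each alternative that gave it a value, except Gipr, whose log2 difference of -0.05 became 0.0038 after median centring. The groups stayed apart in the same 9 members after quantile normalization, after median centring and with voom on recovered reads. Another pseudocount keeps the order of a gene's values, so it could not change this count. As libraries were left out in turn, the count ran from 8 to 10 of the members, since Gpr119 was no longer above the filter without any one S487D library and Gipr stood apart without S487A replicate 2. The 5564 genes called became 5335 with a replicate block and 5952 with voom on recovered reads, and 4603 to 4851 with a library left out. Replicate numbers do not pair the samples: deviations of same-numbered libraries correlated at -0.06 to 0.01. The number of other Gi-coupled receptors called went from 8 to 4 with a filter at RPKM 5, which leaves fewer of them to test. The ligand genes called rose to 2 without a filter, which lets low genes in, Cort among them. Other counts stayed within 1.5 times. At this depth Gpr119 has 6 to 23 reads per library.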
